A study of Drosophila melanogaster with 3 samples.

Results

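The regions described here are binding peaks at promoters whose protein-coding start sites face one way. They are the peaks of the authors' reproducible set, selected with the irreproducible discovery rate (IDR), whose summit lay within 500 bp of an annotated start site of a protein-coding gene, with every protein-coding start site in that distance on the same strand. Of the 4805 IDR peaks on the chromosome arms of Drosophila melanogaster (dm6 build), 1591 met this rule, a share of 33.1% (exact 95% binomial interval 31.8 to 34.5%). The others comprised 279 peaks at divergent promoters, with protein-coding start sites on both strands, 179 peaks near start sites of non-coding genes only, and 2756 peaks away from start sites. The 1591 peaks belonged to 1312 of 13968 protein-coding genes. At 71 of the peaks a start site of a non-coding gene on the other strand also lay within 500 bp.

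The chromatin came from whole prepupae, males and females pooled, of a strain named CG16779-MiMIC. Its CG16779 gene carries an enhanced green fluorescent protein (eGFP) exon within an intron, so the tagged protein is expressed under the gene's native control, and DNA bound by it was recovered with an antibody to GFP and sequenced (ChIP-seq). All libraries form 1 group of 3 biological replicates, there is no second genotype, stage or treatment, and the age in hours is not given. Whole animals mix many tissues, so a peak can come from any of them. Each replicate is given as a list of 30000 regions, a pooled list holds 30000 more, and read depth is unknown from these files.

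A promoter is the stretch around a transcription start where the polymerase machinery assembles. In flies, many developmentally regulated promoters carry GA repeats bound by GAGA factor, which helps to keep chromatin open, while many promoters of broadly expressed genes carry the DNA replication-related element (DRE), bound by DREF. The prepupa is the stage between larva and pupa, when pulses of the steroid hormone ecdysone drive tissue death and the building of adult structures.

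Sequence around the summit shows the material that the results below turn on. Of the strongest peaks 4 are shown, chosen as the highest-scoring peaks without an exonic base in the window and outside an arm whose sequence is not shown here. Each run has 101 bases centred on the summit, 5′ to 3′ on the strand of the gene, from the RefSeq sequence of the dm6 assembly, and capitals mark runs of at least 6 A or T. Their GC content is 32.7% at larp, 45.5% at Cat, 37.6% at CG43658 and 26.7% at CG14100. They lie at 3R:28326539-28326639 (minus strand, intron of larp), 3L:18822866-18822966 (plus strand, intron of Cat), X:17531602-17531702 (minus strand, intron of CG43658) and 3L:19590560-19590660 (minus strand, intergenic, beside CG14100).
larp: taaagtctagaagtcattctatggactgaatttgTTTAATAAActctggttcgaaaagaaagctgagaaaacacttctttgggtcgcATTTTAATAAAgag
Cat: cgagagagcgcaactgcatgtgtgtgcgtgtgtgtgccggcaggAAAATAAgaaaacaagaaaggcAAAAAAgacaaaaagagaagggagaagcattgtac
CG43658: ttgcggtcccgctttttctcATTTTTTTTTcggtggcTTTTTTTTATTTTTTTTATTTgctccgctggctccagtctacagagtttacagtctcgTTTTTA
CG14100: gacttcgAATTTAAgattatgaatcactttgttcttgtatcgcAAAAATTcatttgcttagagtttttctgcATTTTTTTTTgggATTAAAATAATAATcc

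Repeats of GA and CA carry the motif results below, and the highest-scoring peaks with such a repeat within 50 bp of the summit are shown by the same rule, leaving out genes shown before them. Windows can also hold repeats of the other kinds, as at Cat, Syp and Pde11, or runs of A or T, as at Eip93F, which are not in capitals there. For the GA repeat, capitals mark GAGAG or longer on either strand. These windows lie at 3R:20778606-20778706 (plus strand, intron of Syp), 3R:29618845-29618945 (plus strand, intergenic, beside CG1907) and 2L:2221946-2222046 (plus strand, intron at papi).
Syp: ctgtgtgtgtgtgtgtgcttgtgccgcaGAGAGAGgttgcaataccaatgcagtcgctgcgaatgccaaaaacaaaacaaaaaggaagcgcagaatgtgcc
CG1907: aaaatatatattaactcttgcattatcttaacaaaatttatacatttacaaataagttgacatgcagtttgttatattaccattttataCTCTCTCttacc
papi: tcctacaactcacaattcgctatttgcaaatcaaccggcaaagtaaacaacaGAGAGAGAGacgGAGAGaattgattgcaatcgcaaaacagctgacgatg
For the CA repeat, capitals mark 4 or more CA or TG pairs in a row. These windows lie at 3R:21972253-21972353 (plus strand, intron of Eip93F), 2L:18563301-18563401 (minus strand, intron at Pde11) and X:7947020-7947120 (minus strand, intron at orion).
Eip93F: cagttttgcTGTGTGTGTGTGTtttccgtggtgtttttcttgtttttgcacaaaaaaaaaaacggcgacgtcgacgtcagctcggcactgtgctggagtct
Pde11: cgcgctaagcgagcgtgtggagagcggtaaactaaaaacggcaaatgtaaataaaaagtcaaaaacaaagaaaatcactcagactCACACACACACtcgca
orion: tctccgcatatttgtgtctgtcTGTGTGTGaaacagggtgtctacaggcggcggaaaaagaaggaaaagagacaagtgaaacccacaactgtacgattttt

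Replicate 3 stood apart from the others in how many of the one-strand promoter peaks it listed. A peak counted as listed where at least 1 bp overlapped a region of the replicate. Replicate 1 listed 1573 of the 1591 peaks (98.9%), replicate 2 listed 1574 (98.9%) and replicate 3 listed 1308 (82.2%). Over all IDR peaks the shares in replicates 1, 2 and 3 were 98.9%, 98.6% and 86.8%. Divergent promoter peaks had 98.6%, 98.2% and 75.3%, so the lower share in replicate 3 was not particular to one-strand promoters. Regions were ranked within each list by the authors' peak score, which has a scale of its own per list. Among the 4805 strongest regions of each list, as many as there are IDR peaks, 1327, 1344 and 1072 of the peaks were found, a mean of 78.4% ± 9.58 (SD, n = 3). Without replicate 3 that mean was 83.9%, and over all IDR peaks with every replicate it was 77.0% ± 2.26. All 3 replicates listed 1281 of the 1591 peaks (80.5%), where the share over all IDR peaks was 84.8%. In all 3, 794 peaks (49.9%) were among the strongest regions, close to the 49.6% over all IDR peaks, and 13 peaks were among the strongest in no replicate.

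The peaks that replicate 3 did not list were found on X more often than the listed ones. Of the 294 peaks on X, 82 were missing from replicate 3 (27.9%, exact 95% interval 22.8 to 33.4%). On the autosomes 201 of 1297 were missing (15.5%, 13.6 to 17.6%). In replicate 1 the missing shares were 0.34% on X and 1.31% on the autosomes, and in replicate 2 they were 0 of 294 (exact 95% interval up to 1.25%) and 1.31%. The same direction was seen among the IDR peaks elsewhere, of which 15.6% on X and 9.87% on the autosomes were missing from replicate 3. Missing peaks had a median score of 254.5 against 288.1 for listed ones, and 58.7% against 68.1% of their summits lay upstream of the start. The part of these values in the difference between X and the autosomes was not tested.

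The strongest of these peaks lay at Ugalt (FBgn0024994), which encodes a UDP-galactose transporter. Its peak on X, from 2703682 to 2704076, was also first among all IDR peaks, with a score of 3655 and ranks of 7, 2 and 1 in replicates 1, 2 and 3. At larp (FBgn0261618), whose product is a La-related protein that binds RNA, the peak on 3R from 28326303 to 28326837 scored 3003 and ranked 4, 11 and 8, and its summit lay 325 bp upstream of an internal start site. The peak at Cat (FBgn0000261), the catalase gene, on 3L from 18822595 to 18823128, scored 2850 and ranked 1, 7 and 38, with the summit 312 bp downstream of the start, inside an intron. PNPase (FBgn0039846), which encodes a polyribonucleotide nucleotidyltransferase, followed with a score of 2805 and ranks of 16, 5 and 7. All of these were near the top of every list, and of the first 5 the peak at CG43658 differed most between replicates, with ranks of 3, 3 and 104.

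Scores of the 20 strongest peaks ran from 1676 to 3655, and 15 of the 20 summits lay upstream of the start. Every replicate listed all 20, with median ranks of 24, 30.5 and 25.5 in replicates 1, 2 and 3 and largest rank numbers of 75, 100 and 268. Named genes with a known role among them included Hsp27, a small heat shock protein gene (score 2264, ranks 31, 25 and 11). Others were puc, the gene of a phosphatase that restrains Jun kinase signalling (score 1790, ranks 9, 57 and 249), and Gapdh2, a glycolytic enzyme gene (score 1779, ranks 53, 45 and 34). The rank of 268 was that of yip2 in replicate 3, where the others ranked it 12 and 13. Also in this group were Fkbp14, a peptidyl-prolyl isomerase gene (score 1909), mRpL41, a mitochondrial ribosomal protein gene (score 1794), gish, a casein kinase gene (score 1676), Tina-1, hdly, CG14100, CG18549, CG32772, CG31145, CG1888 and CG3788.

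**Figure D1:**
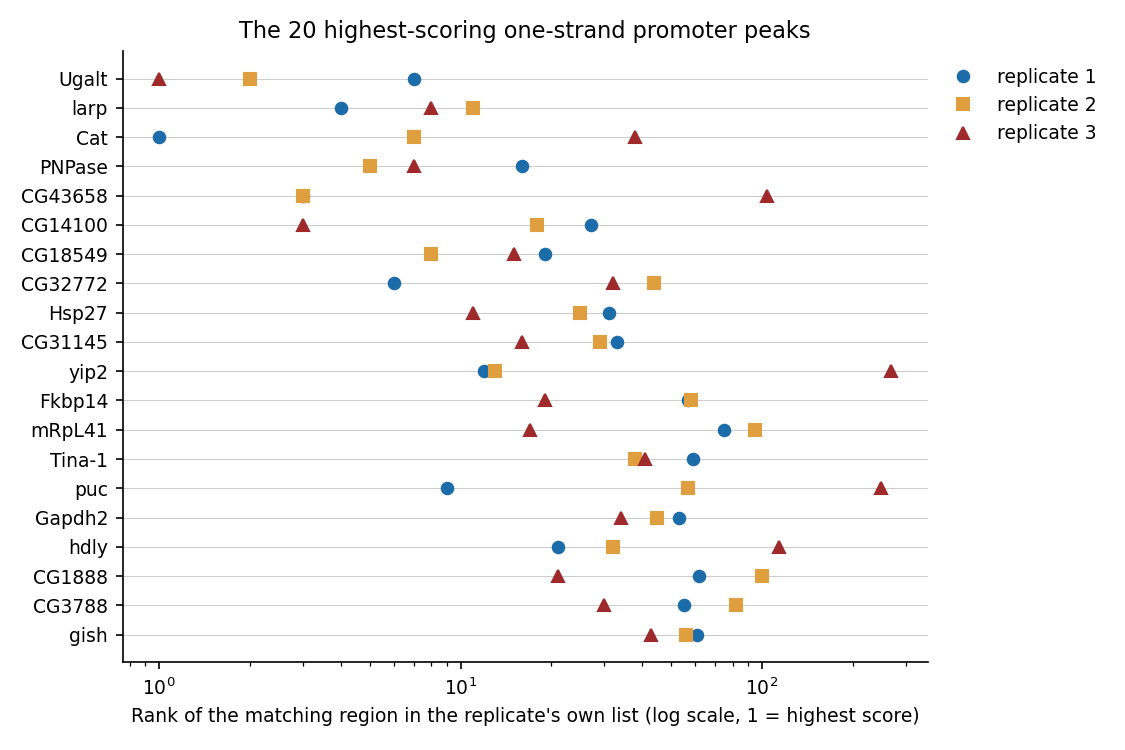
Rank of the matching region in each replicate's own list (x axis, log scale, 1 is the highest score) for the 20 one-strand promoter peaks with the highest scores (y axis, highest at the top). Replicate 3 gives the largest rank number for Cat, CG43658, yip2, puc and hdly only, and the smallest for Ugalt, CG14100, Hsp27 and mRpL41 among others.

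The strongest peaks missing from a whole list were all missing from replicate 3. The first was at GstE13, a glutathione transferase gene, with a score of 1308 and ranks of 122 and 106 in replicates 1 and 2. It was followed by CG5854 (score 1051, ranks 317 and 80), brwl (1049, ranks 210 and 122), mamo, which encodes a zinc finger protein of the BTB class (1023, ranks 80 and 189), and tay (1004, ranks 111 and 255). All 5 ranked within the first 317 of both other replicates. At brwl and mamo another peak of the gene was listed in replicate 3, with scores of 1176 and 957.3 and ranks there of 116 and 429. The interval of the listed mamo peak overlaps that of the missing one.

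The difference in score between these peaks and those at divergent promoters changed sign between replicates. The median score percentile among IDR peaks, where 100 is the strongest, was 54.7, 57.8 and 47.5 in replicates 1, 2 and 3 for one-strand promoters and 58.8, 54.8 and 53.2 for divergent ones. One-strand minus divergent was −4.12, 3.04 and −5.61 percentile points, with a mean of −2.23 ± 4.62 (SD, n = 3; exact sign-flip permutation test, two-sided, p = 0.50). With 3 replicates this test cannot give a p below 0.25, so it cannot reach 0.05. With a promoter window of 1000 bp the mean turned to 2.39, and with 250 bp it was −16.0.

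One-strand promoters took a larger share of the strong regions of each replicate than of the weak ones. They held 36.7%, 39.6% and 29.1% of the 4805 strongest regions in replicates 1, 2 and 3, and 17.3%, 19.7% and 13.4% of the remaining ones. The groups did not overlap, and the difference was 19.4, 19.9 and 15.7 percentage points, a mean of 18.3 ± 2.27 (SD, n = 3; exact sign-flip permutation test, two-sided, p = 0.25, the smallest it can give). The direction was not particular to one-strand promoters. Divergent promoters made up 5.81% of the IDR peaks and 2.17% of the whole pooled list, where one-strand promoters made up 33.1% and 19.0%. By chromosome arm, the share of eligible genes with such a peak ran from 11.1% on 2L to 13.0% on X. On chromosome 4, 0 of 73 eligible genes had one, where a count of 3 would be 4.11%, and the pooled list held 2 regions there.

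Most summits lay upstream of the start. Of 1591 summits, 1057 (66.4%, exact 95% interval 64.1 to 68.8%) were upstream of the nearest start site, and the median position was −91 bp, with quartiles at −218.5 and 46.5 bp. Weaker regions at one-strand promoters, the 3648 regions of the pooled list that overlapped no IDR peak, had a median of −28 bp with 55.6% upstream. Within 50 bp of the start lay 18.7% of summits, and 37.5% lay 50 to 250 bp upstream. Divergent promoter peaks had a median of −42 bp, but there a start site is near on either side, which limits the distance to the nearest one.

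The upstream shift was found in each replicate. The median position of one-strand promoter regions among the strongest was −52, −58 and −128 bp in replicates 1, 2 and 3, and among the remaining regions −4, −3 and −25 bp. The strongest regions were thus further upstream in every replicate, with a mean difference of −68.7 ± 29.9 bp (SD, n = 3; exact sign-flip permutation test, two-sided, p = 0.25, the smallest it can give). Upstream summits made up 64.8% ± 6.47 of the strongest and 51.9% ± 2.11 of the remaining regions. Replicate 3 set much of the size, and without it the median of the strongest regions averaged −55 bp in place of −79.3 bp.

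**Figure D2:**
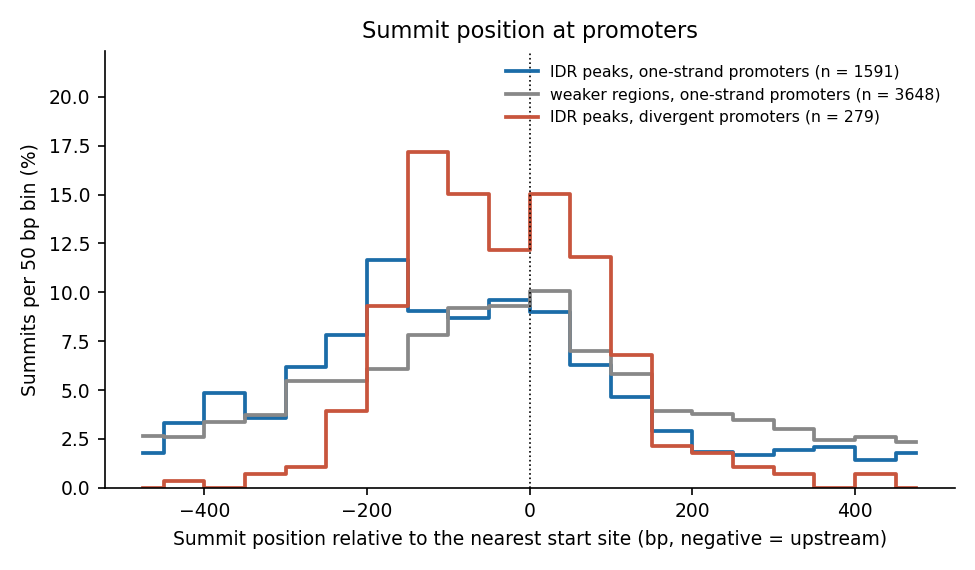
Position of peak summits relative to the nearest protein-coding start site (x axis, bp, upstream is negative) as a share of summits per bin of 50 bp (y axis, percent), for one-strand promoter IDR peaks, weaker one-strand promoter regions and divergent promoter IDR peaks. The one-strand peaks have 66.4% of summits upstream of the start, against 55.6% for the weaker regions.

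By annotation, 587 summits (36.9%) lay in introns, 475 (29.9%) were intergenic and 459 (28.8%) lay in 5′ untranslated regions. Coding exons held 30 (1.89%), against 7.79% of the weaker regions. Among the rest, 13 summits lay in 3′ untranslated regions and 27 in exons of non-coding transcripts. An intronic summit can lie at an internal promoter or downstream of a first start. The nearest start was the most upstream one of its gene for 895 peaks, and for 575 peaks (36.1%) it lay over 500 bp downstream of that start, at a median distance of 4943 bp.

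Peaks at those internal promoters lay further upstream of their start than peaks at the first promoter of a gene. Their median position was −147 bp with 78.3% upstream, against −79 bp and 63.2%. GAGAG, the core of the GAGA factor motif, was within 100 bp of the summit in 48.0% against 40.2%. Median scores were 282.3 and 283.2, and mean GC content 42.5% and 41.5%. These are descriptions over peaks, with no test.

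Peak strength went with base composition and position. When the peaks were divided into quintiles by score, the strongest quintile (scores 513.8 to 3655) had a GC content of 36.8% ± 8.01 (SD over 319 peaks) within 100 bp of the summit, and the weakest quintile (173.8 to 205.0) 44.6% ± 8.95 (318 peaks). The quintiles between had 41.6%, 44.2% and 43.8%. Summits upstream of the start fell from 79.9% in the strongest quintile through 72.3%, 61.0% and 61.3% to 57.6% in the weakest, and the median position was −172 bp in the strongest and −40.5 bp in the weakest. The division into quintiles was chosen after seeing the data.

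The same division within each replicate gave the same direction. Over the one-strand promoter regions among its own strongest, the top quintile had a GC content of 38.5%, 38.3% and 35.9% in replicates 1, 2 and 3, and the bottom quintile 44.6%, 44.8% and 42.6%. The difference was −6.42 ± 0.321 percentage points (SD, n = 3; exact sign-flip permutation test, two-sided, p = 0.25, the smallest it can give). Median positions were −149, −160 and −185 bp in the top quintile and −8, −23 and −61 bp in the bottom quintile. In both measures no top value overlapped a bottom value. GC content can change how well a fragment is amplified and sequenced, and its part in the scores was not tested.

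**Figure D3:**
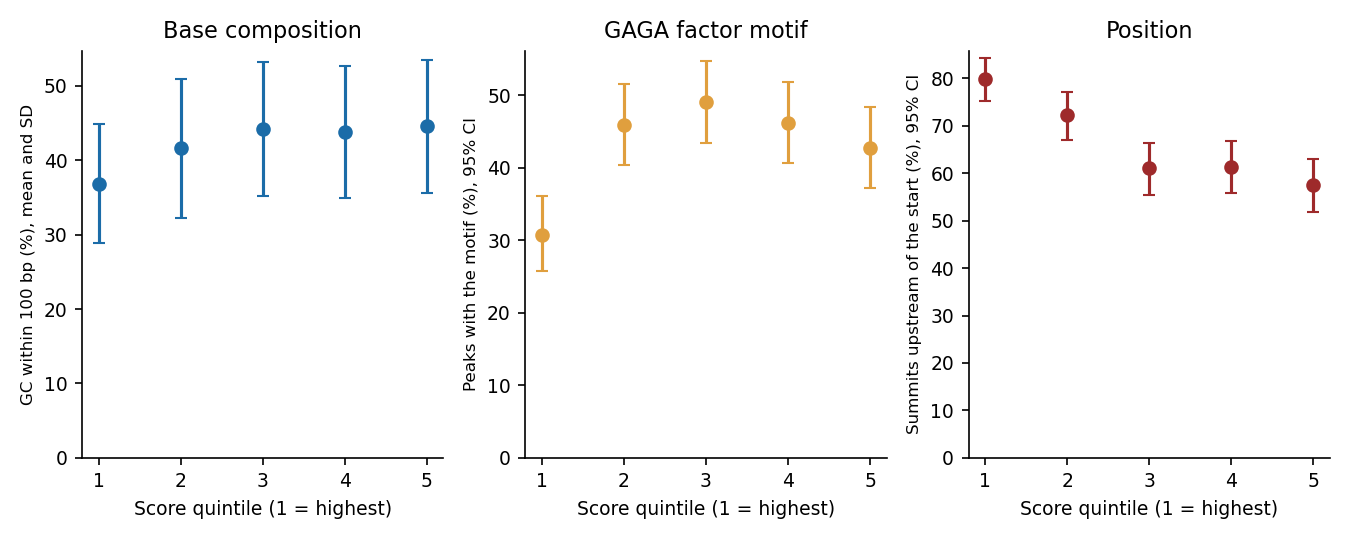
GC content within 100 bp of the summit (left, mean and SD over peaks), share of peaks with the GAGA factor motif (middle) and share of summits upstream of the nearest start (right, both with exact 95% binomial intervals), by quintile of the peak score (x axis, 1 is the highest). The strongest quintile is lowest in GC content (36.8%) and in the motif (30.7%) and highest in upstream summits (79.9%).

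GAGAG was more frequent at these peaks than at promoters in general. Counting both strands, 683 of 1591 peaks had it within 100 bp of the summit (42.9%, exact 95% interval 40.5 to 45.4%). The share was 36.3% at weaker one-strand regions, 26.9% at divergent promoter peaks and 24.9% in 9814 windows of the same length, 201 bp, placed 91 bp upstream of the first start of genes with one-strand promoters. The longer repeat GAGAGAG, which contains GAGAG, was found in 15.7%, against 10.1%, 3.94% and 5.71% in the same order. Mean GC content was 42.2% in the peaks, 45% in the weaker regions, 37.9% at divergent peaks and 39.8% in the promoter windows.

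Within bands of GC content, chosen after seeing the data, the excess over weaker regions was found in windows of 35% GC or more, and that over promoter windows in every band. In windows of at least 45% GC, GAGAG was in 59.6% of 659 peaks (55.8 to 63.4%), 42.8% of 1892 weaker regions and 41.8% of 2844 promoter windows. Between 35 and 45% the shares were 38.6%, 32.4% and 23.3%. Under 35% they were 21.4% of 406 peaks, 21.5% of weaker regions and 12.4% of promoter windows, so peaks and weaker regions did not separate there.

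In the replicates, GAGAG was within 100 bp of the summit in 44.0%, 43.7% and 41.5% of the strongest one-strand regions and in 36.1%, 34.7% and 33.2% of the remaining ones. The groups did not overlap, and the difference was 8.41 ± 0.541 percentage points (SD, n = 3; exact sign-flip permutation test, two-sided, p = 0.25, the smallest it can give). Among the peaks by score, however, the strongest quintile had the lowest share, 30.7% (25.7 to 36.1%), and the other quintiles had 45.9%, 49.1%, 46.2% and 42.8% from stronger to weaker. Matches did not gather at the summit: in bins of 50 bp out to 200 bp on either side, from 14.3% to 19.4% of peaks had one. The strand of the gene carried GAGAG in 44.7% of peaks within 200 bp and the other strand in 46.8%.

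Other repeats followed. CACACACA was within 100 bp in 185 peaks (11.6%), 8.22% of weaker regions and 3.23% of promoter windows, and the strongest regions of the replicates exceeded the remaining ones by 2.71 ± 1.12 percentage points (SD, n = 3). That difference was 0.739 points in windows under 45% GC and 6.61 points in windows of 45% or more, a split added after seeing the data, and 0.727 points within 50 bp and 4.66 points within 200 bp of the summit. CAACAACAA was in 5.72%, 3.84% and 1.57%, with a difference of 1.37 ± 0.151 points. That difference was 0.447 points within 50 bp and 3.41 points within 200 bp. A run of 8 A, or of T on the other strand, AAAAAAAA, was in 16.7%, 11.4% and 10.9%, with a difference of 4.76 ± 0.785 points. This run was about as frequent at divergent promoter peaks (15.8%) and more frequent at IDR peaks away from start sites (21.6%). Each of these repeats and runs was higher among the strongest regions in 3 of 3 replicates (exact sign-flip permutation test, two-sided, p = 0.25, the smallest it can give). Most of the 36 motifs had the same direction in 3 of 3 replicates, some higher and some lower, so this agreement does not set the repeats apart. TATAAA was in 23.1% of peaks, 19.6% of weaker regions and 35.7% of promoter windows. It was also higher among the strongest regions in 3 of 3, by 4.58 ± 2.07 points (SD, n = 3). By the same split that difference was 4.61 points under 45% GC and −0.441 points at 45% or more. Words of 6 bases, counted on both strands, were ranked on chromosome 2 by their excess over weaker regions. The first was AAAAAA, in 38.8% of peaks against 29.2% of weaker regions, followed by AAATAA (39.1% against 29.6%), AAAAAC (37.1% against 27.6%), AAAATA (40.3% against 30.9%) and ATTTAA (27.9% against 19.2%). On chromosome 3, AAAAAA was in 43.2% of peaks and 31.0% of weaker regions, and on X in 52.4% and 44.0%.

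The DRE was rare around the summits of these peaks. Its sequence TATCGATA was within 100 bp of the summit in 12 of 1591 peaks (0.754%), in 0.905% of weaker regions, in 5.19% of promoter windows and in 6.45% of divergent promoter peaks. Its core ATCGAT was in 4.65%, 6.03%, 14.8% and 13.6%. Promoter windows all lie 91 bp upstream of a first start, whereas summits vary in their distance from the start. Counted from the start site, as below, the shares for TATCGATA were closer, 3.38% for peaks and 5.59% for all one-strand promoters. In the replicates the strongest regions fell below the remaining ones for ATCGAT by 2.22 ± 1.10 points (SD, n = 3), lower in 3 of 3, whereas TATCGATA was lower in 2 of 3. Motif 1 and Motif 6 were also less frequent at peaks than in promoter windows but more frequent than in weaker regions. GGTCACACT, from Motif 1, was in 1.13% of peaks, 0.466% of weaker regions and 2.17% of promoter windows, and GTATTTTT, from Motif 6, in 3.77%, 2.69% and 4.91%. GCCAT, the core of the Pleiohomeotic site, was in 23.8% of peaks, 29.2% of weaker regions and 31.3% of promoter windows. Exact matches are descriptions of the sequence and say nothing of which protein is bound.

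Counted from the start site, on the strand of the gene, the nearest promoters had few TATA boxes. TATAAA between 45 and 15 bp upstream was found at 68 of 1478 start sites (4.60%, exact 95% interval 3.59 to 5.80%), at 8.05% of the starts nearest to weaker regions and at 10.6% of first starts of all one-strand promoters. TCAGT, the core of the Initiator, within 10 bp of the start was found at 24.1%, 22.7% and 14.9%, and at 8.99% of starts beside divergent peaks. GAGAG in the 150 bp before the start was at 26.3%, 17.3% and 11.4%. TATCGATA from 150 bp before to 50 bp after the start was at 3.38%, 3.13% and 5.59%, and at 10.1% beside divergent peaks.

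Genes with several promoters carried such peaks more often. A gene was eligible where at least 1 of its start sites had no protein-coding start on the other strand within 500 bp, and of 10761 eligible genes 1288 had a peak, or 12.0%. The share was 6.08% of genes with 1 annotated start site, 18.9% with 2, 32.6% with 3, 48.7% with 4 to 6 and 68.1% of 47 genes with 7 or more (exact 95% interval 52.9 to 80.9%). More start sites give more windows in which a summit can fall. Among genes with 1 start site the share still ran from 1.31% in the shortest quintile (168 to 865 bp) to 16.0% in the longest (4354 bp and over). Genes with a peak had a median length of 8320 bp, and those without 2033 bp. In the replicates' strongest regions 12.9%, 14.2% and 10.5% of eligible genes had one.

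**Figure D4:**
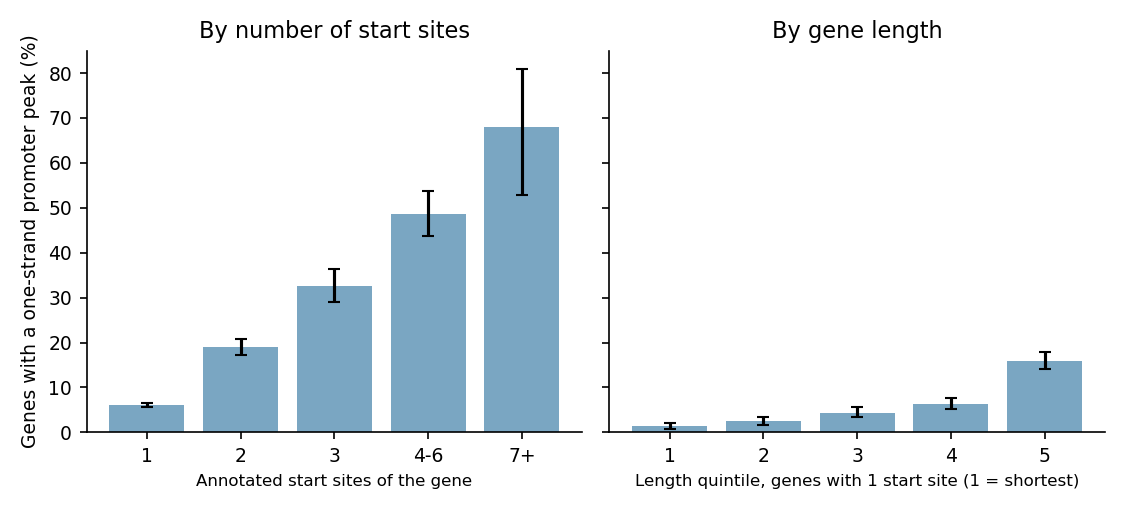
Share of eligible protein-coding genes with a one-strand promoter IDR peak (y axis, percent, exact 95% binomial intervals) by the number of annotated start sites (left) and, for genes with 1 start site, by quintile of gene length (right). The share rises from 6.08% at 1 start site to 68.1% at 7 or more, and from 1.31% to 16.0% over the quintiles of length.

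The genes with most of these peaks had them at several of their start sites, some of which had a pair of peaks. Svil, the supervillin gene (16 start sites), and Rtnl1, the reticulon gene (7 start sites), had 6 each. Scores at Rtnl1 ran from 175.7 to 1497 and at Svil from 175.4 to 954.4. Then came dnc, a cyclic AMP phosphodiesterase gene, Tlk, a Tousled-like kinase gene, and Eip75B, an ecdysone-induced nuclear receptor gene, with 5 each. At dnc the peaks scored 775.5, 474.4, 304.0, 200.7 and 176.4, the last at the first promoter and the others 79628 to 152967 bp downstream of it. Summits of 1 gene that lie in the same replicate region share its rank, as did a pair at Rtnl1 and pairs at Tlk, so they are not separate regions in the replicates.

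Gene lists are described by the share of eligible genes with a peak, beside the 12.0% over all eligible genes, with the number of genes found in the strongest regions of replicates 1, 2 and 3 for the main lists. Of 28 lists, 20 lay above the share of all genes. Of these, the JAK-STAT and cell death lists were not above the share of all genes counted with a window of 250 bp, 9.23%, nor the vacuolar proton pump list above that with 1000 bp, 14.1%. The intervals of small lists are wide, and nothing is claimed as particular to a list.

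Genes with several start sites carried peaks more often, so the lists were also counted over those genes alone, a restriction added after seeing the data. Over all eligible genes with several start sites the share was 26.1%. It was 12 of 20 for the ecdysone response, 6 of 7 for Notch, 10 of 14 for insulin and TOR, 5 of 9 for the EGF receptor, 5 of 7 for Dpp, 2 of 2 for Hippo and 2 of 5 for JAK-STAT genes. It was 14 of 30 for cytosolic ribosomal proteins, 10 of 18 for translation factors, 7 of 10 for glycolysis, 6 of 9 for heat shock and chaperones and 4 of 9 for antioxidant and iron genes. For Polycomb genes it was 6 of 8, for the Trithorax list 6 of 14, for the cytoskeleton 10 of 14 and for epidermis and septate junctions 5 of 12. The Wingless list, with 2 of 8, lay just under the share of all such genes, and oxidative phosphorylation, with 1 of 19, and the proteasome, with 0 of 6, stayed below it. Cuticle proteins (0 of 11), chemosensory receptors (0 of 12), Hox genes and partners (0 of 7), autophagy (0 of 3) and mitochondrial ribosomal proteins (0 of 1) were also below. The vacuolar proton pump (2 of 6), insulator (2 of 6), core promoter (1 of 3) and cell death (1 of 1) lists lay above it.

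Genes of the ecdysone response, which times metamorphosis, carried a peak in 15 of 29 cases (51.7%). The replicates gave 17, 14 and 12 genes. The strongest was at E23, an ABC transporter gene induced by ecdysone, on 2L with a score of 1176 and ranks of 204, 108 and 124. Eip93F, a transcription factor gene of the same response, had a peak at an internal promoter 23265 bp downstream of the first start (score 1084, ranks 78, 176 and 341). The cell death activator hid followed (score 700.2, ranks 717, 1595 and 229). The list also held EcR, the ecdysone receptor gene, br, ftz-f1, Hr3, Hr4, Hr38, Hr78, Eip74EF and Eip75B. The cell death list had 2 of 10, hid and Diap1 (3, 3 and 2 in the replicates), and the autophagy list 1 of 9, Atg4a (4, 3 and 1), near the share over all genes.

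Signalling pathways had shares well above 12.0% for several lists. Of the Notch pathway, 10 of 16 genes had a peak (62.5%), led by gro, a corepressor gene (score 659.1, ranks 687, 1054 and 315), neur, a ubiquitin ligase gene (513.7) and numb, an inhibitor of Notch (467.7). The replicates gave 9, 10 and 6 Notch genes. Of the insulin and TOR pathways, 13 of 22 had one (59.1%), led by Sesn, a sestrin gene (score 1365, ranks 126, 116 and 92), REPTOR, a transcription factor gene under TOR control (1062, ranks 413, 118 and 158), and scyl, an inhibitor of TOR (534.6). The list included InR, the insulin receptor gene, foxo, Thor and Pdk1. The replicates gave 14, 15 and 12 of these genes.

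The EGF receptor pathway had 8 of 17 (47.1%), led by csw, a phosphatase gene (score 1003), spi, a ligand (862.9), and aos, a secreted inhibitor (430.3), and it included Egfr itself. The Dpp pathway also had 8 of 17, and for both pathways the replicates gave 8, 8 and 6 genes. Dpp genes were led by shn, a transcription factor gene with a score of 1549 and ranks of 39, 54 and 128, then dally, a glypican gene (293.6), and wit, a receptor gene (289.3). For wit the ranks were 1691, 842 and 21444, so replicate 3 held it near the end of its list. The Hippo pathway had 6 of 12 (5, 5 and 4 in the replicates) with app, Mer and ft in front (597.8, 481.6 and 405.5), and Mer, the Merlin gene, was not listed in replicate 3. Lower shares were found for JAK-STAT genes (2 of 9, Stat92E and apt) and for the Wingless pathway (3 of 18, gish, sgg and nkd). At sgg, the glycogen synthase kinase gene, the peak scored 1351 with ranks of 179, 63 and 97.

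Summits lay at different places relative to the start in glycolysis and in cytosolic ribosomal protein genes, as a description with no test. Of 10 eligible glycolysis genes 7 had a peak (70.0%; 7, 8 and 6 in the replicates), all 10 having several start sites, and Gapdh2, Hex-A, a hexokinase gene (score 1096, ranks 158, 262 and 119), and Eno, the enolase gene (1056, ranks 199, 226 and 152), had the strongest. Their 7 summits had a median position of −159 bp and 0 of them lay within 50 bp of the start. Of 58 cytosolic ribosomal protein genes 22 had one (37.9%), with 34, 27 and 14 in replicates 1, 2 and 3. Their summits had a median position of 2 bp, from −113 to 61 bp, and 20 of 22 lay within 50 bp of the start, where 18.7% of all the one-strand peaks did. The strongest were at RpS4 (score 712.0, ranks 272 and 421, not listed in replicate 3), RpS10b (592.3) and RpS28b (558.5), with summits at 16, 5 and −21 bp.

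Translation factors had 11 of 40 (27.5%; 9, 11 and 6 in the replicates), with a median position of −35 bp and 4 of 11 summits within 50 bp of the start, led by eIF6 (score 1379, ranks 215, 126 and 45), pAbp, the poly(A)-binding protein gene (611.3), and eEF1gamma (511.8). The heat shock and chaperone list had 8 of 26 (30.8%; 9, 11 and 7), led by Hsp27, Hsp83 (1300, ranks 49, 267 and 109) and Hsp26 (610.3), with a median position of −132.5 bp. Antioxidant and iron genes had 9 of 17 (52.9%; 9, 9 and 6), led by Cat, Sesn and Sod1, the superoxide dismutase gene (321.2, not listed in replicate 3). By contrast, mitochondrial ribosomal proteins had 1 of 20 (mRpL41), oxidative phosphorylation 1 of 51 (ATPsynC, score 287.5) and the proteasome 0 of 26. The exact binomial interval for the proteasome reached 13.2%, so it included the 12.0% over all genes. The vacuolar proton pump had 3 of 23, Vha16-1, Vha13 and Vha100-2, or 13.0%, near the share over all genes.

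Chromatin and structural genes were also among them. The Polycomb list had 6 of 16 (37.5%; 6, 6 and 5 in the replicates), with ph-p first (score 1461, ranks 164, 130 and 24), then jing (1115) and Psc, a subunit gene of the complex that compacts chromatin (364.8). The Trithorax and remodeller list had 7 of 20 (6, 6 and 7), with psq (1147, ranks 72, 207 and 241), lola (742.1) and trx, the founding methyltransferase gene (328.4), and it included Trl, the gene of GAGA factor. The list of insulator and architectural proteins had 3 of 14 (mamo, Chro and mod(mdg4)). In it mamo was counted as a BTB zinc finger gene, and the peaks at Chro and mod(mdg4) scored only 185.0 and 182.0. Replicate 3 did not list the strongest peaks of these 3 genes, though it listed another mamo peak (score 957.3, rank 429). Core promoter and pausing factors had 1 of 9 (3, 3 and 0), Trf2, also not listed in replicate 3.

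The cytoskeleton list had 12 of 26 (46.2%; 12, 12 and 6 in the replicates), with jar, a myosin gene (545.5), Msp300, a nesprin gene (496.0), and pod1, a coronin gene (477.8). Genes of epidermis and septate junctions had 10 of 20 (10, 12 and 7), with nrv1, a sodium pump subunit gene (704.1), scrib, a polarity gene (602.9), and ct, a homeobox gene (551.2). No cuticle protein gene of 119 had a peak (exact binomial interval up to 3.05%), and none of 164 chemosensory receptor genes (up to 2.22%). Of 10 Hox genes and partners 0 had one (exact binomial interval up to 30.85%). Cuticle and chemosensory genes seldom have several start sites (9.24% and 7.32% of them, against 100% of the glycolysis genes). Among those with several, 0 of 11 cuticle and 0 of 12 chemosensory genes had a peak, where the share over all such genes was 26.1%. The part of the number of start sites in the counts was not tested.

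**Figure D5:**
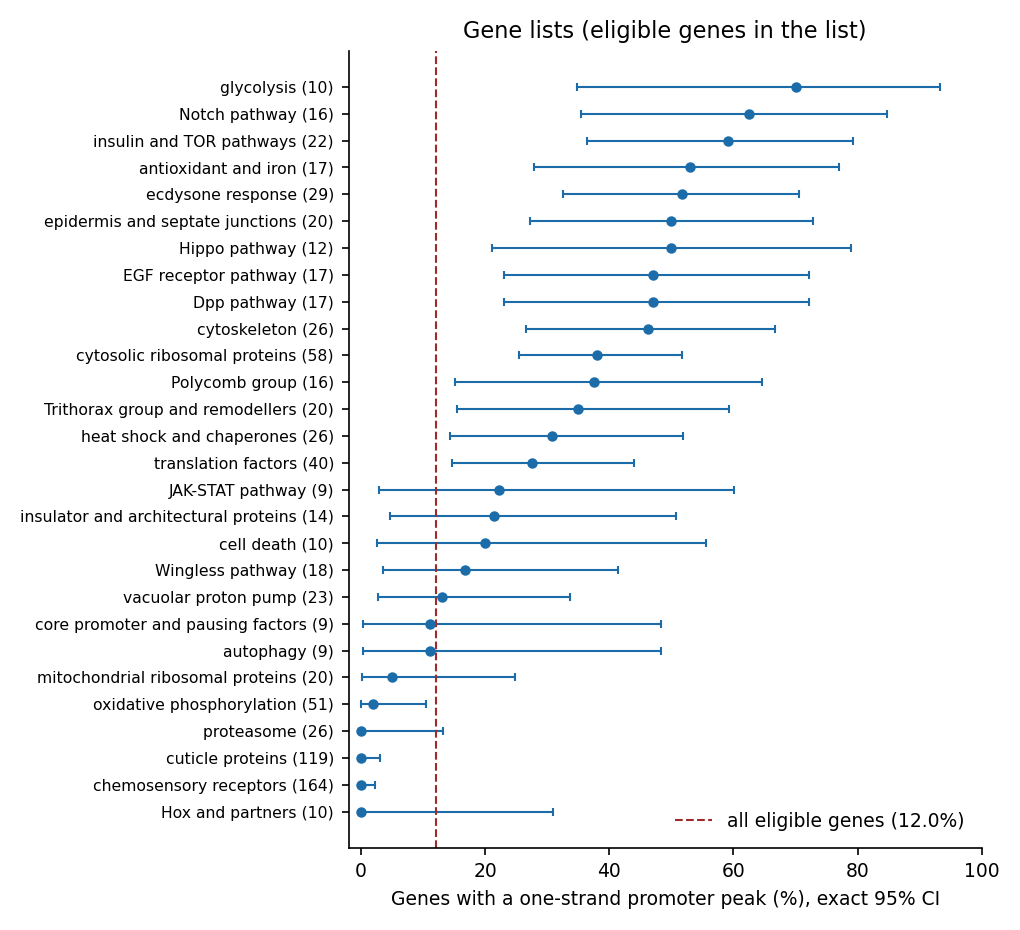
Share of eligible genes with a one-strand promoter IDR peak (x axis, percent, points with exact 95% binomial intervals) for 28 gene lists (y axis, number of eligible genes in brackets), with a dashed line at the 12.0% over all eligible genes. Glycolysis lies highest at 70.0%, and the proteasome, cuticle protein, chemosensory receptor and Hox lists lie at 0.

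At the limit of 500 bp, the members just inside were at E(spl)m2-BFM (500 bp upstream, score 533.4), Cad96Cb (500 bp upstream, 230.6) and Sodh2 (499 bp upstream, 264.1). The IDR peaks just outside it were near CG42671 (501 bp upstream, score 405.7), CG10479 (502 bp upstream, 228.1) and CG6891 (503 bp upstream, 467.0).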

How the data were processed

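Per the labels, 3 biological replicates of 1 group were used. The peak score in each list is the authors' own, deposited with the position and with the other column used here, the distance from interval start to summit. Per the deposited listings, each replicate list came from its own alignments, the pooled list from all 3, and the IDR set from these lists. The sources used here do not name the aligner, the peak caller or the IDR threshold. The dm3 lists were not used. Start sites came from Ensembl release 115, all transcripts of protein-coding genes, and sequence from the RefSeq dm6 assembly. Scores only ranked regions within a list. Motifs (36) were exact matches on both strands. Intervals are exact binomial (95%), and they and the floor of 3 counts, given for chromosome 4, cover counting error only. Read depth is unknown. Tests were exact sign-flip permutations over 3 replicates. Genes named were the 20 highest scores, the 3 highest per list, the 5 highest missing from a replicate, the 5 genes with most peaks and those at the 500 bp limit; other genes, those with sequences included, were chosen after their values were seen. Members and lists were chosen with earlier results of these data known. Matching and motif steps were tested on simulated data. Python 3.11.15 with numpy 2.4.6, scipy 1.17.1 and pandas 2.3.3 was used.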

Additional observations from a re-analysis of the deposited data

How the results depend on the processing

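Of 136 alternatives to the main results, 2 turned a direction and 5 moved a count by over 1.5 times or a value by more than its SD over replicates (42.3 bp for the median position). Differences tested over replicates were judged by direction only, so a change in their size, even beyond the SD, is not among the 5. An example is the score percentile difference of −16.0 with a window of 250 bp, where the SD was 4.62. The score percentile of one-strand minus divergent peaks turned from −2.23 to 2.39 with a window of 1000 bp, and TATAAA, strongest minus remaining regions, from 4.58 to −0.441 percentage points in windows of at least 45% GC, an alternative added after seeing the data. The median position moved from −91 to −53 bp with a window of 250 bp, within that SD, and to −140 bp for members with scores above their median. Members among the strongest regions of a replicate averaged 52.6% with 2400 and 90.9% with 10000 strongest regions, as the longer list contains the shorter. Genes with a peak numbered 852 where the interval had to overlap the start and 718 for members with scores above their median, which are fewer peaks by construction. Canonical transcripts alone gave 1087 members. GAGAG, strongest minus remaining, ran from 4.44 points within 50 bp to 12.7 within 200 bp, the cause of which was not tested, and from 4.74 points under 45% GC to 17.0 at 45% or more. Leaving out 1 replicate gave 17.6 to 19.6 points for the one-strand share, −4.87 to −0.541 for the score percentile, 75.4 to 83.9% for members matched, −93 to −55 bp for the median position and 8.12 to 8.65 points for GAGAG. Lists above the share of all genes numbered 18 to 21. Of 112 counts of single lists under alternatives, 83 stayed within 1.5 times. No paired analysis was possible between groups because there is 1 group, and the tests compare values within a replicate. Unknown depth limits every missing peak to "not listed".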
